A study of Homo sapiens with 2 samples.

Results

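Long noncoding RNA (lncRNA) genes held 788 of the 20499 NUDT21 eCLIP-seq peaks deposited for J-Gamma1 cells, or 3.84% of the list (95% interval 3.59 to 4.12%). A peak was counted here when its midpoint lay in an exon or intron of a lncRNA gene of GENCODE 44 and outside the body of every protein-coding gene. The peaks fell in 531 of 18866 annotated lncRNA genes, and 378 of these genes held 1 peak each. A further 1458 peaks had a midpoint in a lncRNA gene but also in a protein-coding gene, and were left out because the list carries no strand.

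NUDT21 is the subunit of mammalian cleavage factor I (CFIm) that recognises UGUA in RNA upstream of poly(A) sites, and CFIm takes part in the choice between alternative 3′ ends. Most lncRNAs are transcribed by RNA polymerase II, and many are spliced and polyadenylated like mRNAs. Others end differently: MALAT1 is cut by RNase P, and the host transcripts of microRNAs are cut by Drosha around the hairpin. NEAT1, the scaffold of paraspeckles, has a short polyadenylated isoform and a long one, and CFIm is known to favour the short one.

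The study mapped NUDT21 contacts in J-Gamma1, a derivative of the Jurkat cell line that models T-cell acute lymphoblastic leukemia (T-ALL), with 1 library made with a NUDT21 antibody and 1 input library. Both were made from cells exposed on ice to 2 irradiations with UV-C of 254 nm at 400 mJ, lysed for 15 min, and digested with 40 U of RNase I for 5 min at 37°C. The peaks came from the antibody library; the input was not analysed here. There was no replicate and the read depth is unknown, so no test was made, and each interval below is an exact Clopper-Pearson 95% interval (for a ratio, an exact interval of its counts) that covers counting error only. Each interval treats peaks as independent, although peaks gather in genes. Of the T-cell marker genes examined, 4 of 13 held a peak (3 with 1 of at least 5 steps, the unit explained below), against 1 of 5 B-cell genes and none of 5 myeloid and 3 erythroid genes. CD3E and PTPRC were among the T-cell genes with peaks, whereas CD3D, CD2, TRAC and the TRBC genes had none. The share of all protein-coding genes with a peak is not given here, so these counts of few genes do not show cell identity.

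The reference sequences of 10 peaks are shown first, since the results below turn on the genes they lie in. The MALAT1 peaks ranked 2 and 4 by fold enrichment, with 5 and 1 UGUA, are over 300 nt long and are not printed. They were read from hg38 on the strand of the gene, 5′ to 3′, with each TGTA (UGUA in the RNA) in capitals; in NORAD the capitals also cover the whole of an element of the form TGTANATA. The first is the peak of the highest Score in the entire list, and the others include the peaks of highest fold enrichment in NORAD, DLEU2, MIR181A1HG, FGD5-AS1 and MIR4453HG.
MALAT1, chr11:65499647-65499813, plus strand: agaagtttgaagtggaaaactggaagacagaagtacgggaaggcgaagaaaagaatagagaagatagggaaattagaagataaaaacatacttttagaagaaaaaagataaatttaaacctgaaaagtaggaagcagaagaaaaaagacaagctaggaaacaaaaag
NORAD, chr20:36047977-36048203, minus strand: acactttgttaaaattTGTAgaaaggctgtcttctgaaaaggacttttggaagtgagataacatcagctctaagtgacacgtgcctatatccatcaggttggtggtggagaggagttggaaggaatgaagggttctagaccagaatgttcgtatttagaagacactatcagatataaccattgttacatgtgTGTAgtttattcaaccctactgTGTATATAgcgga
NORAD, chr20:36046119-36046242, minus strand: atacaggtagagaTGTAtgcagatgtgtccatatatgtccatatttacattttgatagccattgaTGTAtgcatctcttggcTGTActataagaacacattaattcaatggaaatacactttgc
DLEU2, chr13:50048486-50048536, minus strand: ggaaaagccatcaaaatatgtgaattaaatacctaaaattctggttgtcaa
DLEU2, chr13:50068089-50068153, minus strand: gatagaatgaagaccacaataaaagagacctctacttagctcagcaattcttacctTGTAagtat
MIR181A1HG, chr1:198895735-198895802, minus strand: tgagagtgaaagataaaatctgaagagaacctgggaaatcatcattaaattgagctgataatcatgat
MIR29B2CHG, chr1:207799567-207799650, minus strand: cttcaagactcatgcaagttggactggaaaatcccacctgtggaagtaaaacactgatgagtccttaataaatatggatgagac
FGD5-AS1, chr3:14947239-14947374, minus strand: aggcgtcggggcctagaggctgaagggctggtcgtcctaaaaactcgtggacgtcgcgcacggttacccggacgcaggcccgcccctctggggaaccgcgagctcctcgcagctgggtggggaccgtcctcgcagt
MIR4453HG, chr4:152538201-152538278, plus strand: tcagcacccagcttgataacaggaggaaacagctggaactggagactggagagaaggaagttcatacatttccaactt
NEAT1, chr11:65433405-65433633, plus strand: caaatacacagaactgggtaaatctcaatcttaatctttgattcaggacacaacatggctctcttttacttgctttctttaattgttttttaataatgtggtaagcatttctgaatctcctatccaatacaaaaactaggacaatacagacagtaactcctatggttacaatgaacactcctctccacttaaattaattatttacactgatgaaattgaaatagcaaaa

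No TGTA occurred in the MALAT1 peak, the first DLEU2 peak, or the MIR181A1HG, MIR29B2CHG, FGD5-AS1, MIR4453HG and NEAT1 peaks shown. Both NORAD peaks held 3 each, and the second DLEU2 peak held 1. The MALAT1 peak, 167 nt long and rich in purines, held GAAG 11 times.

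Most peaks in lncRNA genes were as low as the list allows. The deposited Score is a pileup that takes whole multiples of 0.228, called steps here, and 453 of the 788 peaks (57.5%, 53.9 to 61.0%) were at 1 step. In protein-coding genes 32.1% (31.4 to 32.7%) of 18724 peaks were at 1 step. The deposited fold enrichment is inferred from its values to be Score plus 1 over local background plus 1, not their plain ratio. Its median was 1.17 in lncRNA genes, which is also the lowest value in the list, and the upper quartile was 1.61. In protein-coding genes the median was 1.61, but it was 1.17 in their introns and in peaks of neither kind of gene. The highest fold enrichment of a lncRNA peak was 3.92, against 7.14 in protein-coding genes. No lncRNA peak had a deposited FDR under 0.05 (0 of 788), where 0.0927% of all peaks did, and the FDR was 1 for each of the 788. The q-value of 0.05 stated for the peak calling thus does not describe the deposited list. For 0 of 788, an approximate limit of 3 counts, not an exact interval, allows a share of up to 0.381%.

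Peaks of at least 5 steps made up 162 of the 788 (20.6%, 17.8 to 23.6%), below the 42.3% of all 20499 peaks. Among the 280 lncRNA peaks with a midpoint in an exon the share was 38.9% (33.2 to 44.9%), and among 11269 exonic peaks of protein-coding genes 68.7% (67.8 to 69.6%). Introns differed less: 10.4% (7.91 to 13.4%) of 508 intronic lncRNA peaks and 9.58% (8.92 to 10.3%) of 7455 intronic peaks of protein-coding genes had at least 5 steps. Of the 987 peaks in neither kind of gene, 5.88% (4.49 to 7.53%) did. No expression values were used here, and the part of RNA abundance in these heights was not tested.

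The share of exonic peaks rose with height. Exons held 35.5% (32.2 to 39.0%) of the lncRNA peaks, while exons made up 4.95% of the bases of the same 531 gene bodies outside protein-coding genes. Long genes weigh most in this share of bases, whereas 378 of the genes held 1 peak each. The exonic share was 25.4% (21.4 to 29.7%) at 1 step and 32.4% (25.5 to 39.9%) at 2 to 4 steps. It was 61.4% (51.2 to 70.9%) at 5 to 8 steps, 68.3% (51.9 to 81.9%) at 9 to 16, and 19 of 20 peaks at 17 or more. Protein-coding genes began at a like share, 24.4% at 1 step, but reached 89.3% (88.4 to 90.1%) at 5 to 8 steps and 94.7% (93.9 to 95.5%) at 9 to 16. At 17 or more steps the share in protein-coding genes was 96.5%. As peaks gather in few genes, these intervals do not test the gene types against each other. Of the 20 tallest lncRNA peaks 17 lay in MALAT1, and without this gene 2 of 3 were exonic.

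**Figure D1:**
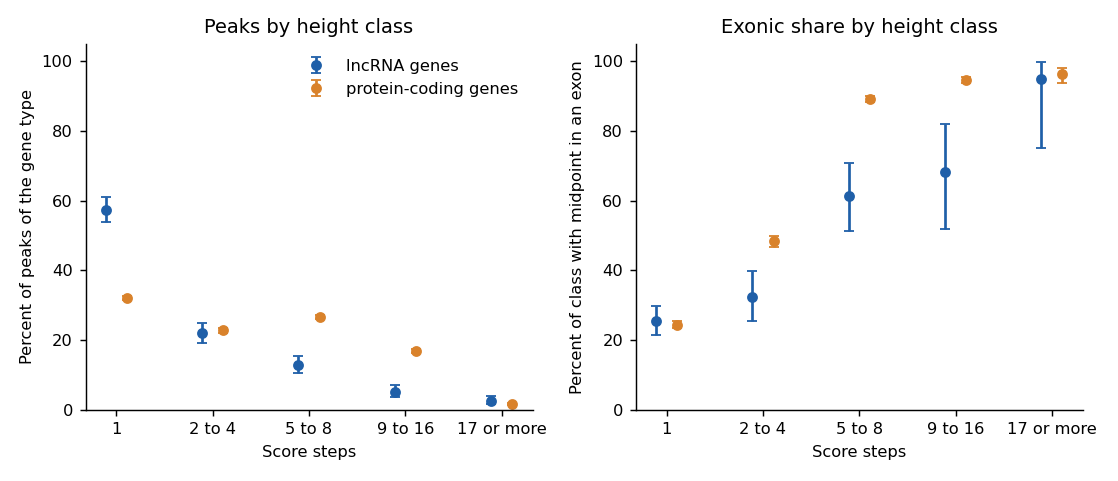
Share of peaks in each class of Score steps (left, percent of the peaks of that gene type) and share of each class with its midpoint in an exon (right, percent), for 788 peaks in lncRNA genes and 18724 in protein-coding genes. Points are shares and bars exact 95% intervals; lncRNA peaks are mostly at 1 step (57.5%), and their exonic share at 5 to 8 steps (61.4%) lies under that of protein-coding genes (89.3%).

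The tall peaks were held by few genes. At least 1 peak of 5 or more steps occurred in 56 genes, while in 342 genes each peak was at 1 step. The 10 genes with the most peaks, ties going to the higher summed Score (MIR181A1HG, DLEU2, MIR29B2CHG, MALAT1, TALAM1, FGD5-AS1, NORAD, LINC02693, MIR4453HG and ENSG00000266466) held 120 peaks, 15.2% of the total. SNHG14, tied at 8 peaks with the last of them, fell outside by this rule, with 2 peaks of at least 5 steps. They held 102 of the 162 peaks of at least 5 steps (63.0%) and 51.5% of the summed Score. MALAT1 alone had 17 peaks and 23.3% of the summed Score.

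**Figure D2:**
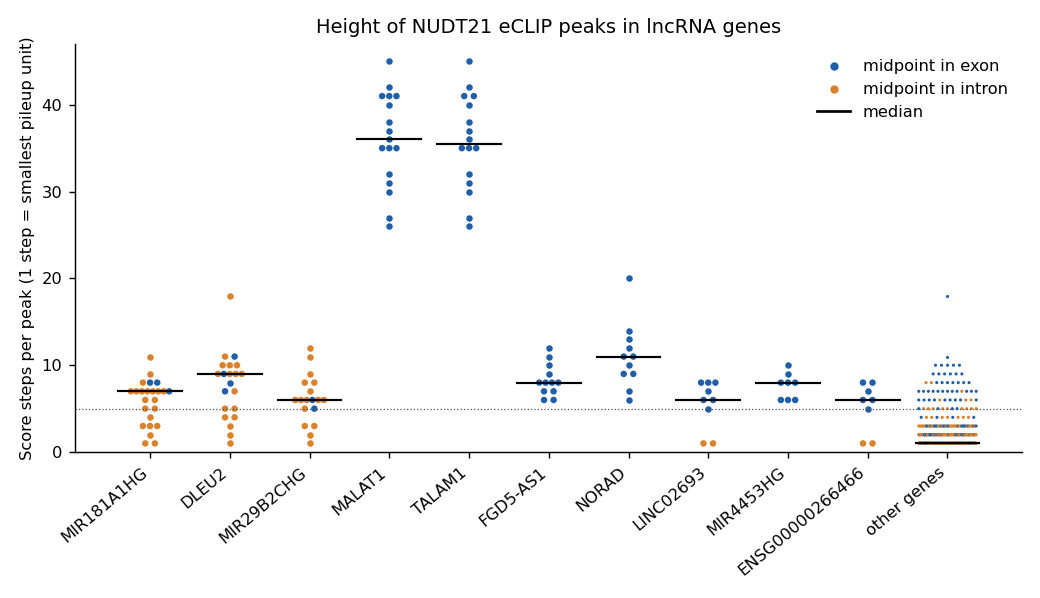
Score steps of each lncRNA peak, in the 10 genes with the most peaks and in all other lncRNA genes together; each point is a peak, blue with its midpoint in an exon and orange in an intron, black lines are medians, and the dotted line marks 5 steps. MALAT1 peaks, nearly all counted again under the overlapping TALAM1, lie at 26 to 45 steps, above the highest peak of any other lncRNA gene (20 steps, in NORAD), and the median of the other genes is 1 step.

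MALAT1, an abundant RNA of nuclear speckles, is encoded at chr11:65497640-65508073 on the plus strand. Its 17 peaks had a lowest Score of 26 steps, a median of 36 and a highest of 45, and each was exonic. No peak of the list was taller than the one of 45 steps at chr11:65499647-65499813; the tallest outside lncRNA genes had 44. Of the 87 peaks of at least 26 steps in the list, 17 lay in this 1 gene. They were spread from nt 1583 to nt 8388 of the 10434 nt gene. Of the 17 peaks, 16 also lay in TALAM1, a transcript of the opposite strand, and without strand both cannot be told apart.

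The fold enrichments of MALAT1 were less exceptional than its Scores. They ran from 1.68 to 3.85 with a median of 2.51, and the peak of 45 steps had 2.70. Solving the ratio for the local background, on the inference from the values that fold enrichment is Score plus 1 over background plus 1, gave 1.63 to 5.00 over the MALAT1 peaks. In NORAD the same quantity was 0.0816 to 1.00, and in DLEU2 0.0480 to 0.331. The highest fold enrichment of the gene, 3.85, belonged to a 443 nt peak at chr11:65503560-65504002 with 42 steps and 5 UGUA. On the MALAT1 strand 7 of the 17 peaks held a UGUA, at 4.75 per kb in peaks and 4.16 per kb in the rest of the gene. GAAG stood at 14.6 per kb in peaks and 8.57 in the rest, whereas its reverse complement CTTC stood at 3.65 and 5.07. GAAG was uneven among the peaks. Of 40 occurrences, 11 lay in the peak of 45 steps and 9 in that of 37 steps, and several peaks held none.

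NORAD, a cytoplasmic lncRNA known for binding Pumilio proteins through many UGUANAUA elements, lies at chr20:36045618-36051018 on the minus strand. Each of its 11 peaks was exonic and had at least 6 steps, with a median of 11 and a highest of 20. Fold enrichment ran from 1.91 to 3.61, and the top value was that of the first NORAD sequence printed above, with 13 steps. The sequence TGTANATA occurred 15 times in the 5401 nt gene, and 3 of these (20.0%) lay wholly in a peak, while peaks covered 28.2% of the gene. These 3 were in the peaks of 20, 13 and 11 steps, and the run of 10 elements between nt 819 and nt 2706 lay outside peaks. UGUA itself stood at 8.54 per kb in the NORAD peaks and 9.28 per kb outside them, and 7 of the 11 peaks held at least 1.

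**Figure D3:**
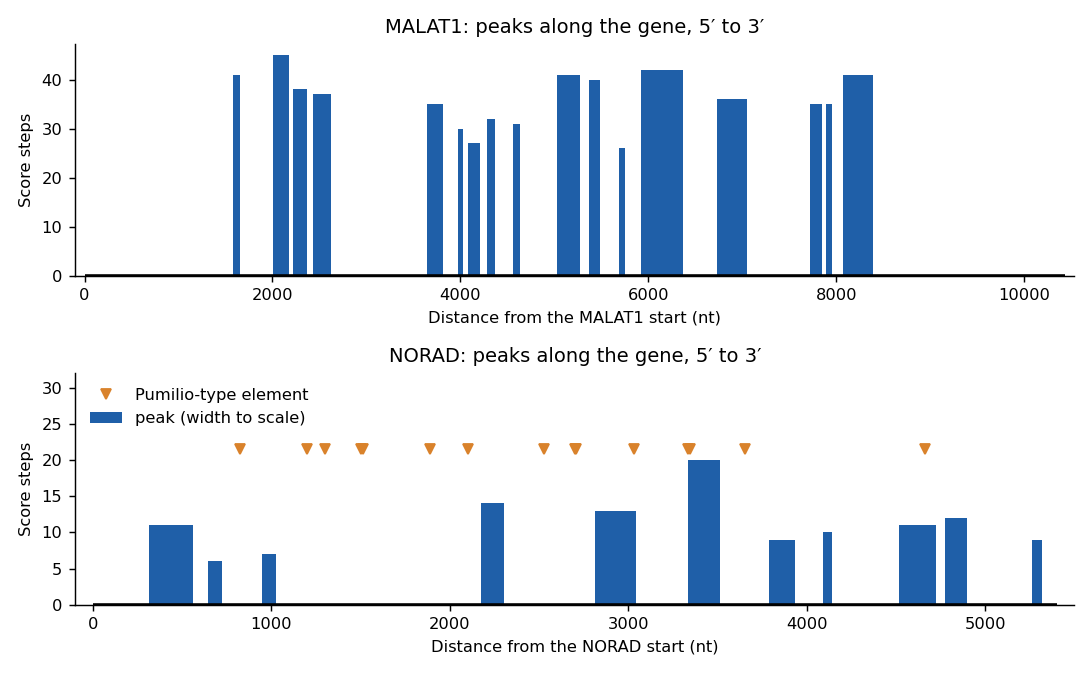
Peaks along MALAT1 and NORAD, 5′ to 3′; the horizontal axis is the distance from the gene start in nt, bar width is the peak to scale and bar height its Score in steps. Orange triangles mark the 15 UGUANAUA elements of NORAD, of which 3 lie wholly in a peak; MALAT1 peaks end at nt 8388 of 10434.

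NEAT1, the nuclear lncRNA for which an action of CFIm is known, held 1 low peak. It had 3 steps and a fold enrichment of 1.61, and spanned nt 10632 to nt 10860 of the 22767 nt gene. It held no UGUA on the NEAT1 strand and 5 on the opposite strand, as the sequence above shows. The annotated transcript ends of the short isoform, between nt 3612 and nt 3740, lay at least 6892 nt upstream of this peak, and the 150 nt before these ends held 2 to 4 UGUA. A list of peaks above a threshold does not show that NUDT21 is absent there.

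The lncRNA genes were next grouped by the form of their symbols. Symbols of the form MIR...HG made up 83 genes, of which 20 (24.1%, 15.4 to 34.7%) held a peak, and 46 of their 77 peaks (59.7%, 47.9 to 70.8%) had at least 5 steps, against 42.3% of all peaks. All 46 came from 6 hosts: MIR181A1HG held 17, MIR29B2CHG 14, MIR4453HG 8, MIRLET7A1HG 5, and MIR17HG and MIR223HG 1 each. The naming of MIRLET7A1HG and MIR223HG followed from their values. Symbols of no fixed form, among them MALAT1, NORAD and DLEU2, gave 43 of 804 genes (5.35%) and 60 of 126 peaks of such height (47.6%, 38.7 to 56.7%). Hosts of small nucleolar RNAs gave 4 of 32 genes (12.5%, 3.51 to 29.0%) and 4 of 12 peaks. The intervals of these classes overlapped those of the microRNA hosts, the former for the share of tall peaks and the latter for both shares. They treat peaks as independent, though MIR181A1HG and MIR29B2CHG held most of the tall host peaks, so they do not test the classes against each other. Of 589 divergent transcripts (symbols ending in DT), 54 held a peak (9.17%, 6.96 to 11.8%), with 7 of 73 peaks at 5 or more steps. Antisense symbols gave 82 of 1840 genes (4.46%) and 20 of 116 such peaks, and LINC symbols 95 of 2265 genes (4.19%) and 19 of 143. Genes without a symbol gave 232 of 13109 (1.77%) and 20 of 294. The median body of the host genes was 25065 nt and that of genes without a symbol 4276 nt, so the shares are not per length.

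DLEU2, whose introns carry the tumour suppressor microRNAs miR-15a and miR-16-1, held 21 lncRNA peaks on chromosome 13, with 16 at 5 or more steps, a median of 9 and a highest of 18. A cluster of 15 spanned chr13:50042273-50048536, on the 3′ side of both hairpins along the transcript. The peak nearest to the hairpins was also the tallest of the gene, at chr13:50048486-50048536, which is 437 nt 3′ of the MIR16-1 hairpin (chr13:50048973-50049061). Its 18 steps and fold enrichment of 3.92, the highest of all lncRNA peaks, stood above the other 14 of the cluster (5 to 11 steps). Of the 21 peaks, 4 were exonic. The exonic peak of 11 steps at chr13:50068089-50068153, the second DLEU2 sequence above, held 1 UGUA close to its 3′ end and overlapped an annotated misc_RNA entry, and 10 of the 21 peaks held UGUA.

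MIR29B2CHG, the host of miR-29b-2 and miR-29c, held 18 peaks on chromosome 1, with 14 at 5 or more steps, a median of 6 and a highest of 12. Here peaks flanked the hairpins on both sides. Within 5 kb of the MIR29C hairpin (chr1:207801852-207801939) lay 11 peaks, the nearest 515 nt to its 3′ side with 11 steps, and 500 nt to the 5′ side of MIR29B2 stood a peak of 8 steps. The tallest, at chr1:207799567-207799650 with a fold enrichment of 2.76, lay farthest to the 3′ side and is the sequence printed above.

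MIR181A1HG is the host of miR-181a-1 and miR-181b-1, which tune T-cell receptor signalling. It held the most peaks of any lncRNA gene when peaks also in protein-coding genes were left out. With these counted, the bodies of DLEU2 and SNHG14 held 26 each, against 24 for MIR181A1HG. The 24 peaks of MIR181A1HG had a median of 7 steps and a highest of 11, 17 had at least 5, and 3 were exonic. They did not gather at the hairpins: 21 lay on the 5′ side, and the nearest was 2117 nt to the 3′ side of MIR181B1 with 5 steps. The tallest, with a fold enrichment of 3.31, lay at chr1:198895735-198895802, in a group of 7 peaks that spanned less than 5 kb.

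MIR4453HG, a host gene on chromosome 4, held 8 exonic peaks of 6 to 10 steps (median 8), each on the 3′ side of its hairpin and the nearest at 232 nt. All 8 lay within 5 kb upstream of the start of FBXW7, the ubiquitin ligase subunit often mutated in T-ALL, on the opposite strand from it. In MIRLET7A1HG 5 exonic peaks of 6 to 11 steps lay between and just beyond the let-7 hairpins. The peak of 11 steps stood 546 nt to the 3′ side of MIRLET7F1, and that of 9 steps 485 nt to the 3′ side of MIRLET7D. These 5 also lay in LINC02603 of the other strand. MIR17HG, the host of the oncogenic miR-17 to miR-92 cluster, held 1 peak, of 7 steps, 4834 nt to the 3′ side of MIR92A1.

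No peak overlapped a hairpin. Of 79 RefSeq hairpins (build GRCh38.p14) in 36 lncRNA host genes with a peak, none was overlapped, 12 had a peak of the host within 1 kb, and 29 within 5 kb. Several hairpins of a host can share 1 near peak. Peaks covered little of a host, as in MIR181A1HG 2627 of 159611 nt. The overlap to be had from position alone is not given here, so these counts do not show that peaks avoid hairpins. Of the 36 hosts, 9 held a peak of at least 5 steps, against 56 of all 531 lncRNA genes with a peak. Small RNA genes of GENCODE touched 7 of the 788 peaks: 6 were misc_RNA entries, 3 of them in DLEU2 and 1 in MALAT1, and 1 was an RNU4 pseudogene in PVT1. No peak touched a small nucleolar RNA gene.

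**Figure D4:**
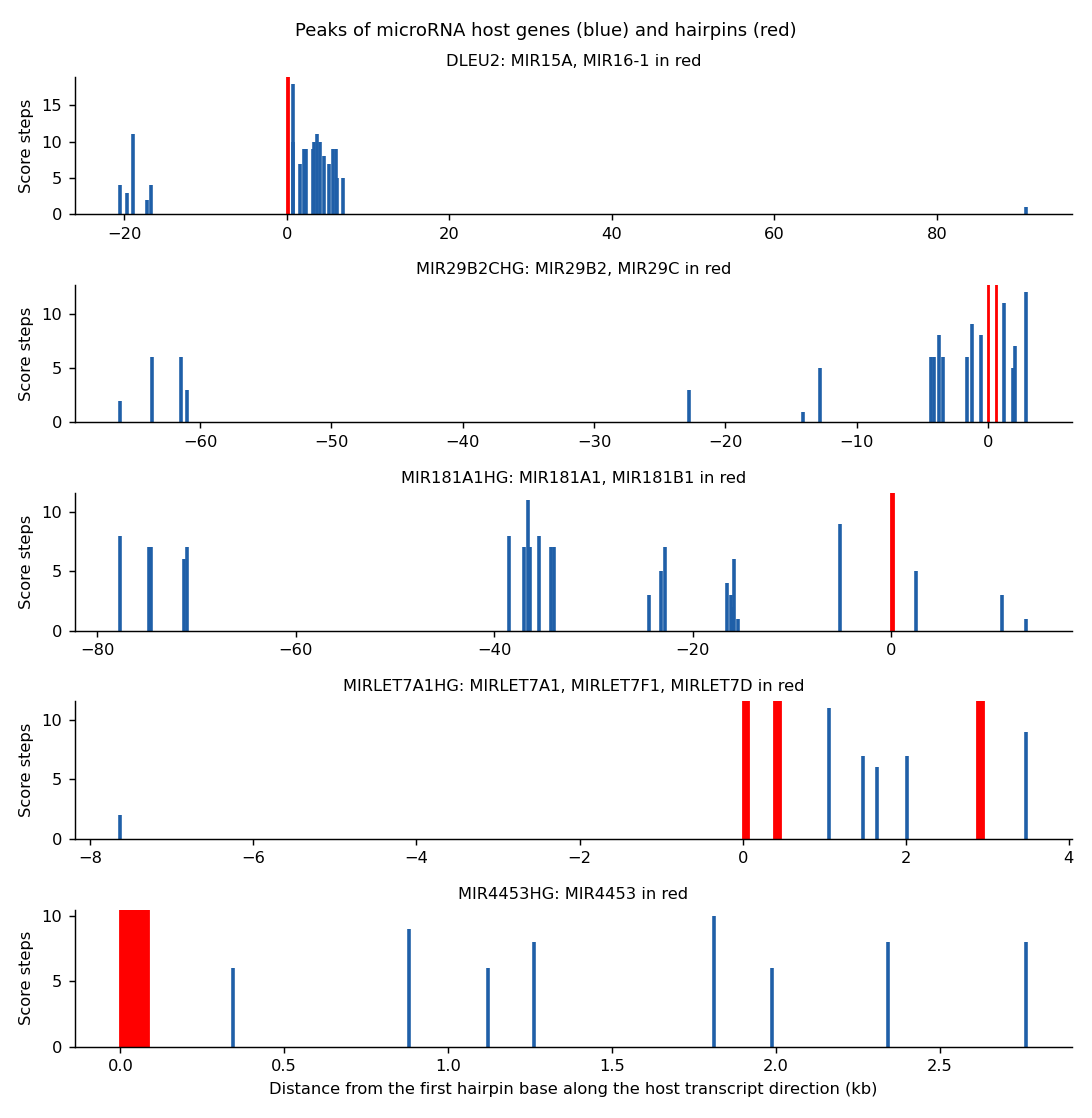
Peaks of 5 microRNA host genes as vertical blue lines at their midpoints, with height in Score steps; the horizontal axis of each panel is the distance in kb from the first hairpin base in the direction of transcription, and red bands are the hairpins, drawn at a minimum width in the wider panels. The 15 peaks of the DLEU2 cluster lie within 7 kb on the 3′ side of MIR16-1, MIR29B2CHG peaks lie on both sides, and most MIR181A1HG peaks lie far on the 5′ side.

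FGD5-AS1, an antisense lncRNA on chromosome 3, held 12 peaks, each exonic and of 6 to 12 steps with a median of 8. The tallest, with a fold enrichment of 3.41, was the GC-rich sequence above, 277 nt upstream of NR2C2, a nuclear receptor gene; each of the 12 lay within 5 kb upstream of that gene. LINC02693 on chromosome 17 had 9 peaks of 1 to 8 steps, of which 8 also lay in ENSG00000266466 on the opposite strand. No UGUA lay in these 9 peaks on the LINC02693 strand, and 63 lay in its exons outside peaks (3.74 per kb). On the opposite strand the same peaks held 7 UGUA (6.49 per kb), against 3.21 per kb outside. C2orf49-DT entered the 10 highest fold enrichments with 3.04 at 10 steps. Outside the named genes the tallest peak had 18 steps, at chr13:109424225-109424352 in ENSG00000289901, a gene without a symbol; it was noticed after its values were seen.

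Other well-known lncRNAs mostly held low peaks or none. Of 10 nuclear lncRNAs on a chosen list, 6 held a lncRNA peak, against 2.81% of all lncRNA genes. MALAT1 was the only one with a peak of 5 or more steps, against 56 of all 18866 lncRNA genes. The shares are not per length, as PVT1 spans 392576 nt and FTX 353140 nt. This list and those below were chosen with earlier results of these data known, so their shares are description only. PVT1 had 7 peaks of 1 to 2 steps, FTX, from the X-inactivation centre, 4 of 1 to 3 steps, MIAT 2 at 1 step and LINC-PINT 1 at 2 steps. KCNQ1OT1, MEG3 and JPX had none, and TUG1 is typed as protein-coding in GENCODE 44, so its 11 peaks were not counted. Of 14 cytoplasmic lncRNAs, 2 held a peak, against 2.81% of all lncRNA genes. These were NORAD, and ZFAS1, a small nucleolar RNA host, with 2 intronic peaks of 8 steps each. The hosts GAS5, SNHG1, SNHG5, SNHG6, SNHG8, SNHG12, SNHG15 and SNHG16 had none, nor did DANCR and CYTOR, and the peaks of OIP5-AS1 (3) and EPB41L4A-AS1 (1) lay in protein-coding genes as well.

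Of 16 lncRNAs tied to T cells or leukemia, 9 held 40 peaks in total and 3 had a peak of at least 5 steps, where 531 of all 18866 lncRNA genes (2.81%) held a peak and 56 one of this height. This list too was chosen with earlier results of these data known. Its shares are not per length, as CCDC26 spans 1049572 nt and SATB1-AS1 478257 nt. MIR181A1HG alone held 24 of the 40 peaks. The 3 genes were MIR181A1HG, MIR17HG, and LINC00861, with 2 peaks of 4 and 7 steps that also lay in LINC02964. CCDC26 had 5 peaks of 1 to 3 steps, SATB1-AS1 had 3 at 1 step, and MIR155HG, the host of miR-155, had 1 at 2 steps. LINC01550 had 2 of 1 to 2 steps, and PRKCQ-AS1 and LEF1-AS1 had 1 each at 1 step. MIR142HG, NALT1, GATA3-AS1, ITGB2-AS1 and PCED1B-AS1 had none, and the peaks of CD27-AS1 (2) and THRIL (2) also lay in protein-coding genes. As levels of these RNAs were not measured here, the counts say nothing of binding per transcript.

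UGUA was not denser in the exonic lncRNA peaks than in the exons around them. On the gene strand 414 of 726 peaks (57.0%, 53.3 to 60.7%) held UGUA, the 62 peaks in genes of both strands being left out. Over 238 exonic peaks in 161 genes, UGUA stood at 3.54 per kb in 48.3 kb of peaks and at 4.77 per kb in 1113 kb of exons outside peaks, a ratio of 0.742 (0.634 to 0.865). On the opposite strand the ratio was 0.792 (0.675 to 0.924), and the 11 other orders of the same letters gave 0.576 to 0.909 on the gene strand with a median of 0.780. The ratio for UGUA thus lay inside the range of the other orders. Among exonic peaks of at least 5 steps it was 0.975 (0.711 to 1.31).

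Peaks of at least 5 steps were shorter than the lower ones, which bears on shares of peaks with a motif. With MALAT1 peaks placed on the MALAT1 strand, 38.5% (30.6 to 46.9%) of 148 peaks of at least 5 steps held UGUA, at a median length of 97.5 nt. Of 594 lower peaks 61.3% (57.2 to 65.2%) did, at a median length of 254 nt. Per kb the order was turned, 4.68 in the taller peaks and 4.15 in the lower. On the opposite strand the taller peaks held 4.99 per kb, more than on the gene strand.

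**Figure D5:**
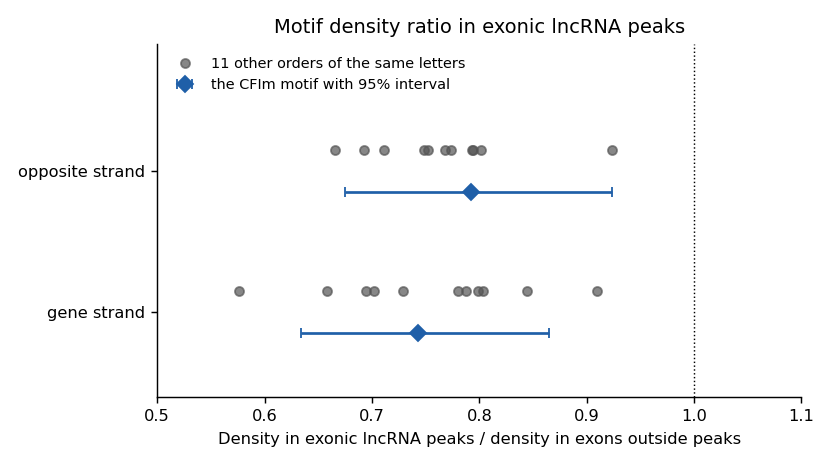
Density of UGUA (blue diamonds, bars are 95% intervals from counts) and of the 11 other orders of the same letters (grey points) in exonic lncRNA peaks over their density in exons of the same genes outside peaks; the horizontal axis is this ratio, the dotted line is 1, and the rows are the gene strand and the opposite strand. UGUA (0.742) lies among the other orders (0.576 to 0.909) and each point is below 1.

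Base composition of the taller peaks was compared after the values were seen, with no list of words chosen beforehand. In 19025 nt of 148 peaks of at least 5 steps, A made up 30.8% of bases and T 25.8%, against 28.3% and 29.7% in the bodies of the same 46 genes outside peaks, introns included. Exons held 67.3% of all 162 lncRNA peaks of this height, but 4.95% of the bases of the 531 gene bodies. The values below thus set mainly exonic peaks against sequence with introns, and the part of this difference in them was not tested. Of the 256 words of 4 letters, those with CG had the highest ratios of density in peaks to density in the bodies, led by CGCG (3.28), CGCA (2.76) and GTCG (2.40). GAAG ranked 17 of 256, the first word without CG, at 8.66 per 1000 positions in peaks and 4.73 outside (161 occurrences, ratio 1.83). GAAC had a ratio of 1.81, GGAA 1.71 and CCCC 1.63. Without MALAT1 the order changed to GAAC (1.89), CCCC (1.83), GGAA (1.64), ACCC (1.62) and GAAG (1.61) among words without CG. Purine-only words did not move together, since AGGG had 0.911 and GAGG 0.968. CTTC, the reverse complement of GAAG, had a ratio of 0.807, and TGTA 1.01. By gene, GAAG stood at 9.36 per kb in MIR29B2CHG peaks and 5.37 in its exons outside peaks, and in NORAD at 5.91 in peaks and 9.54 outside. Only 2 of the 18 MIR29B2CHG peaks were exonic, against all 11 of NORAD. The first contrast thus sets mainly intronic peaks against exons, and the 2 genes are not compared alike.

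A minority of exonic lncRNA peaks lay near an annotated transcript end. Within 150 nt of one were 54 of 280 exonic peaks (19.3%, 14.8 to 24.4%), where 12.7% of the exonic bases of the same genes were as near. The median distance was 672 nt. With transcripts of the GENCODE basic set alone the share was 9.96% (6.55 to 14.4%) and that of the bases 6.34%. MALAT1, with many annotated partial transcripts, gave 12 of the 54, and without it the share was 15.97% (11.8 to 21.0%). The poly(A) signals AATAAA or ATTAAA lay in 49 of 254 exonic peaks on the gene strand (19.3%, 14.6 to 24.7%), and 17 of these 49 peaks were also within 150 nt of an end. The share in exons outside peaks is not given here, so this count does not set the peaks apart from other exonic sequence.

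Many of the peaks were neighbours of protein-coding genes. Within 5 kb of one lay 241 of the 788 (30.6%, 27.4 to 33.9%), where 3.05% of the bases of the lncRNA bodies were as near. The share of bases pools all bodies, so long genes weigh most in it (CCDC26 spans 1049572 nt). The part of gene length in this difference was not tested. Of these, 185 were upstream of the nearest coding gene at a median distance of 905 nt and 56 downstream at 2057 nt. Within 1 kb the counts were 98 upstream and 19 downstream. The share with 5 or more steps was 17.8% (13.2 to 23.3%) within 5 kb, against 20.6% of all 788. Since the list has no strand, signal of the lncRNA and of its coding neighbour cannot be told apart.

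Part of the low peaks came in evenly spaced pairs. The commonest distance between the starts of neighbouring peaks in the list was 476 nt, in 2000 of 20469 neighbouring pairs (9.77%). Of the 788 lncRNA peaks 173 (21.95%, 19.1 to 25.01%) had a partner in the list at exactly this distance, as 19.6% of all peaks did. Among peaks of at most 4 steps the share was 26.2% (22.8 to 29.8%), and among peaks of at least 5 steps 5.56% (2.57 to 10.3%). The pair in EBLN3P at chr9:37080050-37080230 and chr9:37080526-37080706 is an example from the taller class, with 5 steps and 181 nt each. It was chosen after its values were seen. Bodies of annotated pseudogenes contained 49 of the 788 midpoints and 3 of the 162 at 5 or more steps.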

How the data were processed

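Reads of 1 NUDT21 eCLIP-seq library of J-Gamma1 cells were processed by the authors: trimming with fastp, correction and removal of duplicates by unique molecular identifier, removal of ribosomal RNA reads, mapping to hg38 and peak calling with MACS2 at a stated q-value of 0.05. By the deposited FDR, 19 of the 20499 peaks were under 0.05, so the stated q-value does not describe the deposited list. The aligner and the use of the input as control are not given in the sources used here. The deposited list gave position, Score, fold enrichment (by its values, Score plus 1 over local background plus 1), p-value and FDR (a q-value), with no strand. The unit of Score is not stated; by its deposited values it is a pileup signal in whole steps of 0.228. Other values deposited are positions and lengths.

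Peaks were assigned by midpoint to GENCODE 44 (hg38). Exons of any lncRNA transcript counted as exonic; introns were the rest. Motifs were counted in the reference on the gene strand, overlapping matches included. Without strand, position alone assigns a peak, and overlapping or neighbouring genes can receive each other's peaks. Duplicates were limited in peak calling, and RNA abundance was not measured here. Depth is unknown.

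The genes named were the 10 with most peaks, those of the 10 peaks highest in fold enrichment or in Score, any with an FDR under 0.05, and 3 lists; others are marked in the text. Members and lists were chosen with earlier results of these data known. Peaks are not replicates, so no test was run. Counting was tested on simulated data. Alternatives were minimum fold enrichment or steps, whole-peak assignment, merging within 500 nt, exclusion near coding genes, basic transcripts, and other motifs, windows and distances. The strand of MALAT1, the omission of MALAT1 and the 4-letter words were chosen after seeing the data. Repeats were not analysed here. Reference sequence was read with pysam 0.24.0, tables with pandas 2.3.3 and numpy 2.4.6, intervals came from scipy 1.17.1, and figures from matplotlib 3.10.9, under Python 3.11.15.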

Additional observations from a re-analysis of the deposited data

How the results depend on the processing

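Of 79 values recomputed under an alternative, 47 stayed inside the interval of the value reported (for counts, within 1.5 times) and 32 moved. A minimum on height moved most of them, by construction since it removes the lowest peaks. With a fold enrichment of at least 2 there were 137 peaks in 54 genes, 1.76% of the list so restricted; 69.3% were exonic, the median fold enrichment was 2.45, 100% had at least 5 steps, 39.5% held UGUA, the UGUA density ratio was 0.993 and 30.5% of exonic peaks lay near an end. With at least 5 steps there were 162 peaks in 56 genes (1.87%), of which 67.3% were exonic, with a median fold enrichment of 2.33, UGUA in 37.9%, a density ratio of 0.975, 33.0% near an end and 26.5% within 5 kb of a coding gene. At an FDR under 0.05 there were 0 peaks.

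Merging peaks within 500 nt gave 30.7% exonic and 14.2% of at least 5 steps. Without peaks within 5 kb of coding genes, 2.67% of the list was left, 28.9% exonic and 25.3% of these near an end. Basic transcripts put 9.96% of exonic peaks near an end; windows of 50 and 300 nt put 8.93% and 30.0% there. Limits of 1 and 10 kb gave 14.8% and 38.8% near a coding gene. UGUAA or UGUAU lay in 39.1% of peaks, and UGUA in 33.1% of central 100 nt and in 69.6% after extension by 50 nt. Assignment of whole peaks, the MALAT1 strand and the omission of MALAT1 moved no value outside its interval. Overlap with repeats was not run, for want of a repeat annotation used here. No paired analysis was possible because the antibody group has 1 sample and no result comes from a test between samples. Unknown depth and a single library limit every value, and absence from the list does not show absence of binding.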
